A study of Mus musculus with 19 samples.

Results

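The positive limb of the circadian clock and the ROR loop attached to it were followed through 6 genes: Arntl, Clock, Npas2, Rora, Nfil3 and Hlf. They were taken by gene symbol from the 22180 genes of the array, and each has 1 probe set that carries no other symbol. Whole liver from 19 mice was hybridised, 1 array per animal. The titles of the samples give the genotype codes WT, KO and TG and the diets ND (normal) and HFD (high-fat), which makes 6 groups of 3 arrays, except TG on HFD with 4. All mice were 2 to 3 months old and had been on their diet for 4 weeks. Only the title of the series names Kcp, the Kielin/chordin-like protein, a secreted modulator of BMP and TGF-beta signalling. What WT, KO and TG stand for is not written in the labels, nor are the strain, the promoter of a transgene, the sex or the hour of harvest. The animal number in each title is the only ground for counting the arrays as separate mice. Its style differs between the diets. No label names a cohort, and one that this style may mark cannot be told apart from diet. The running array numbers in the titles follow the groups, so that array order and group cannot be told apart either, on ND as on HFD.

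The liver clock is a loop of transcription factors. BMAL1, the product of Arntl, pairs with CLOCK or with its relative NPAS2, binds E-boxes and drives the Per and Cry repressors, the REV-ERB receptors and Dbp. REV-ERBs repress, and RORs such as RORA activate, genes with ROR elements, among them Arntl, Npas2 and Nfil3. NFIL3 represses D-box genes that HLF, DBP and TEF activate. In mouse liver, transcripts of the positive limb peak around the end of the night and those of Dbp and the Per genes towards the evening. These transcripts follow the time of day, and a difference of genotype or diet cannot be told apart here from a difference in the hour of harvest. In whole tissue, fewer cells that express a gene and less of its RNA per cell cannot be told apart either.

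The letters that ROR and REV-ERB receptors read were looked up in RefSeq promoter windows (GRCm38.p6), each covering 250 bases before to 50 after a gene's start. All 6 genes had windows, 9 in all. The element ANTAGGTCA, in which N is any base, contains the half-site AGGTCA. It lay on either strand in 217 of 32851 windows of the genome (0.661%). Among the 9 windows it lay in 2, in 1 of the 2 windows of Arntl and in that of Nfil3. Its form was chosen after the promoters were read, so its share of all windows does not test these matches. Both stretches are shown because they hold the element. The transcripts of these genes passed together only for diet in TG, where the Nfil3 call was lost in 5 of 7 fits that left out 1 array. Whether the element has a part in any of these calls was not tested. Arntl also passed for diet in WT and for KO against WT and against TG on ND, where Nfil3 did not. Capitals mark the element, and on the Nfil3 line it reads on the opposite strand.
Arntl, chr7:113207529-113207558, plus strand, 30 bases downstream of the start: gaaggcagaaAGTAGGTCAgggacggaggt
Nfil3, chr13:52981040-52981289, minus strand, 250 bases before the start: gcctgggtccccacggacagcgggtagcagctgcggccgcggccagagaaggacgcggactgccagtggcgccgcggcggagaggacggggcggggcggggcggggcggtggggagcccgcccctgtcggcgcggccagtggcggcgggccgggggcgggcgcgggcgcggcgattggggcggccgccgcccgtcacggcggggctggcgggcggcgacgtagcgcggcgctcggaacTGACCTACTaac
The match lay at bases 29 to 37 after the Arntl start used here and at bases -12 to -4 of Nfil3. The half-site alone was in 16.3% of all windows, and among the 6 genes also in a window of Clock. The E-box CACGTG (7.15% of all windows) and the D-box TTANNTAA (6.00%) were in none of the 9 windows. A match is a run of letters and not a measured binding site, and its absence concerns only these windows.

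Values are signals as deposited, taken to be log2 and normalized between arrays because the submitters' processing notes list RMA. A linear model of the 6 group means over all 19 arrays (limma) gave differences, moderated standard errors (SE) and Benjamini-Hochberg adjusted p-values over all 22180 genes. A gene is said to have risen or fallen where the adjusted p was under 0.05. Across the 6 groups, 5 of the 6 genes varied by limma's F test, as did 8.7% of all genes. Their adjusted p-values ran from 1.09e-06 for Arntl, the 27th of all genes by p, over 8.58e-06 for Clock and 0.00222 for Npas2 to 0.00485 for Nfil3 and 0.0057 for Hlf. Rora did not pass (adjusted p = 0.639). Kcp checked the labels only in part: it lay between 5.35 and 5.81 on the 7 TG arrays, between 1.77 and 2.82 on the 6 WT arrays and between 1.64 and 2.30 on the 6 KO arrays.

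**Figure D1:**
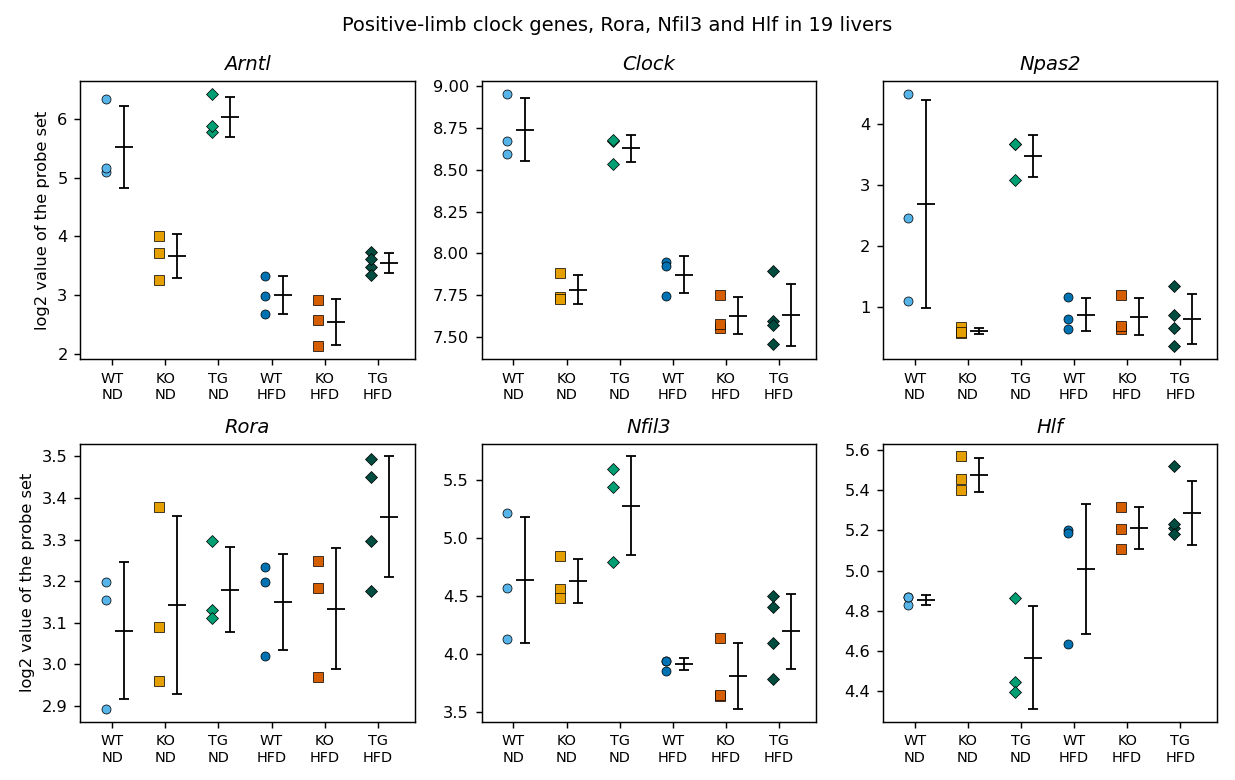
Log2 value of each gene (vertical axis, own scale per panel) on each of the 19 arrays, by group (horizontal axis). Points are arrays, and bars give the mean and SD of the 3 arrays of a group, or 4 for TG on HFD. Arntl and Clock are high on all 6 WT and TG arrays on ND and lower on all 13 others.

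Arntl, whose product BMAL1 is the partner that both CLOCK and NPAS2 need, was high in WT and TG on ND and low everywhere else. Its values were 5.09, 6.33 and 5.16 in WT on ND, 6.43, 5.78 and 5.89 in TG on ND, and 4.00, 3.71 and 3.26 in KO on ND. On HFD they were 2.68, 2.98 and 3.33 in WT, 2.13, 2.91 and 2.58 in KO, and 3.73, 3.48, 3.61 and 3.34 in TG. The lowest WT or TG array on ND stood above every KO array and every HFD array. From highest to lowest mean the order was TG on ND (6.03 ± 0.35, SD, n = 3), WT on ND (5.53 ± 0.70), KO on ND (3.66 ± 0.37), TG on HFD (3.54 ± 0.17, n = 4), WT on HFD (2.99 ± 0.32) and KO on HFD (2.54 ± 0.40). Neighbours in that order overlapped, apart from WT and KO on ND and apart from TG and WT on HFD.

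Arntl fell under HFD by 2.53 on the log2 scale in WT (SE 0.29, adjusted p = 0.000129), a 5.79-fold difference, and by 2.49 in TG (SE 0.27, adjusted p = 7.14e-05). In KO the diet difference was -1.12 (SE 0.29, adjusted p = 0.0887), with no overlap between the arrays of the 2 diets. On ND it was lower in KO than in WT by 3.65-fold (-1.87, SE 0.29, adjusted p = 0.00112) and lower than in TG by 5.19-fold (-2.38, adjusted p = 9.2e-05). On HFD the same genotype differences were -0.45 and -1.002, and neither passed (adjusted p = 0.738 and 0.0649).

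Clock, the partner of BMAL1, passed in the same 4 comparisons of 2 groups as Arntl, with smaller differences. It read 8.60, 8.96 and 8.67 in WT on ND and 8.54, 8.67 and 8.68 in TG on ND, against 7.74, 7.88 and 7.73 in KO on ND. On HFD the values were 7.95, 7.75 and 7.93 in WT, 7.55, 7.58 and 7.75 in KO, and 7.60, 7.46, 7.57 and 7.89 in TG. The 6 WT and TG arrays on ND formed a level of their own, and the other 4 groups overlapped with their neighbours in the order of means. The HFD difference was -0.87 in WT (SE 0.13, adjusted p = 0.00116) and -0.999 in TG (SE 0.12, adjusted p = 0.000179). In KO it was -0.16, with a 95% confidence interval from -0.42 to 0.11 (adjusted p = 0.739). On ND it was lower in KO than in WT (-0.96, SE 0.13, adjusted p = 0.000297) and than in TG (-0.85, adjusted p = 0.000747).

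Npas2, the second partner of BMAL1, was high in TG on ND, varied between WT animals on ND and lay at or below the level of the median gene elsewhere. The TG arrays on ND read 3.67, 3.08 and 3.68. The WT arrays on ND spread widely, at 2.46, 4.50 and 1.10. The 3 KO arrays on ND read 0.66, 0.58 and 0.58. On HFD it lay between 0.35 and 1.34 in all 10 animals. The median gene of an array read between 1.27 and 1.37, so that these KO and HFD levels are dim. Npas2 fell under HFD in TG by 2.67 (SE 0.48, adjusted p = 0.00926), and without TG on ND replicate 1 the adjusted p was 0.0656. In WT the diet difference was -1.82 (SE 0.52, adjusted p = 0.113), and the arrays of the 2 diets overlapped. On ND Npas2 was lower in KO than in TG (difference -2.87 on the log2 scale, SE 0.52, adjusted p = 0.00292).

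The lower Npas2 of KO against WT on ND (-2.08, SE 0.52, adjusted p = 0.0346) lay close to the threshold. Its call was lost in a fit of those 2 groups alone (adjusted p = 0.23), without any KO array on ND (replicates 1, 2 and 3, adjusted p = 0.0839, 0.108 and 0.0949) and without WT on ND replicate 1 (0.0719), while the difference stayed between -2.19 and -2.06. Without WT on ND replicate 2 the difference was -1.17 (adjusted p = 0.093), and without replicate 3 it was -2.87 (adjusted p = 0.000949).

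Rora, the receptor that activates ROR-element genes, stayed within a narrow range. It lay between 2.89 and 3.49 over all 19 arrays, and the group means ran only from 3.08 ± 0.17 in WT on ND to 3.35 ± 0.15 in TG on HFD (SD, n = 3 and 4). Every pair of neighbours in the order of means overlapped. No comparison of 2 groups passed, the smallest adjusted p being 0.484 for KO against TG on HFD (difference -0.22, 95% confidence interval -0.49 to 0.04). The intervals of the 9 comparisons reached from -0.49 to 0.47 on the log2 scale. Its spread within groups was also small: 4.55% of the 1496 genes within 0.5 of its mean had a lower residual SD (0.15).

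Nfil3, the D-box repressor with a ROR element in its own promoter window, had its lower values on HFD, while KO and WT on ND had like means. Its values were 4.13, 5.21 and 4.57 in WT on ND, 4.56, 4.48 and 4.84 in KO on ND, and 5.59, 5.44 and 4.79 in TG on ND. On HFD they were 3.86, 3.94 and 3.94 in WT, 3.64, 3.65 and 4.13 in KO, and 4.40, 4.50, 3.78 and 4.10 in TG. In each genotype the HFD arrays lay below the ND arrays without overlap. The diet difference passed in TG (-1.08, SE 0.24, adjusted p = 0.035) and was -0.72 in WT (adjusted p = 0.239) and -0.82 in KO (adjusted p = 0.16). The call in TG was lost without TG on ND replicate 1 or 2 (adjusted p = 0.207 and 0.175) and without TG on HFD replicate 1, 3 or 4 (adjusted p = 0.0512, 0.0855 and 0.0742). It was also lost in a fit of the TG arrays alone (adjusted p = 0.169). KO and WT on ND differed in Nfil3 by -0.01 (95% confidence interval -0.54 to 0.52), beside -1.87 in Arntl in the same animals.

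Hlf, an activator at D-boxes, had its highest mean in KO on ND (5.47), followed by TG on HFD (5.28). Arntl and Npas2 were low in both groups, and the lowest Arntl mean was in KO on HFD. It read 5.45, 5.40 and 5.57 in KO on ND, against 4.83, 4.87 and 4.87 in WT on ND and 4.86, 4.45 and 4.40 in TG on ND. On HFD the values were 5.20, 4.64 and 5.19 in WT, 5.11, 5.32 and 5.21 in KO, and 5.21, 5.23, 5.52 and 5.18 in TG. All 3 KO arrays on ND stood above all WT and TG arrays on ND, while on HFD the 3 genotypes overlapped. Hlf was higher in KO than in TG on ND by 1.87-fold (0.91, SE 0.15, adjusted p = 0.00198). Under HFD it rose in TG by 0.72 (SE 0.14, adjusted p = 0.0212). The diet difference was 0.15 in WT (adjusted p = 0.806) and -0.26 in KO (adjusted p = 0.577).

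Some Hlf calls lay close to the threshold. KO against WT on ND (0.62, SE 0.15, adjusted p = 0.0352) was lost without any of its arrays. The adjusted p was 0.0832, 0.0806 and 0.123 without KO on ND replicates 1, 2 and 3, and 0.104, 0.0955 and 0.0896 without WT on ND replicates 1, 2 and 3. The rise in TG was lost without TG on ND replicate 2 or 3 (0.121 and 0.0962), without TG on HFD replicate 3 (0.0565) and with the TG arrays alone (0.155).

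**Figure D2:**
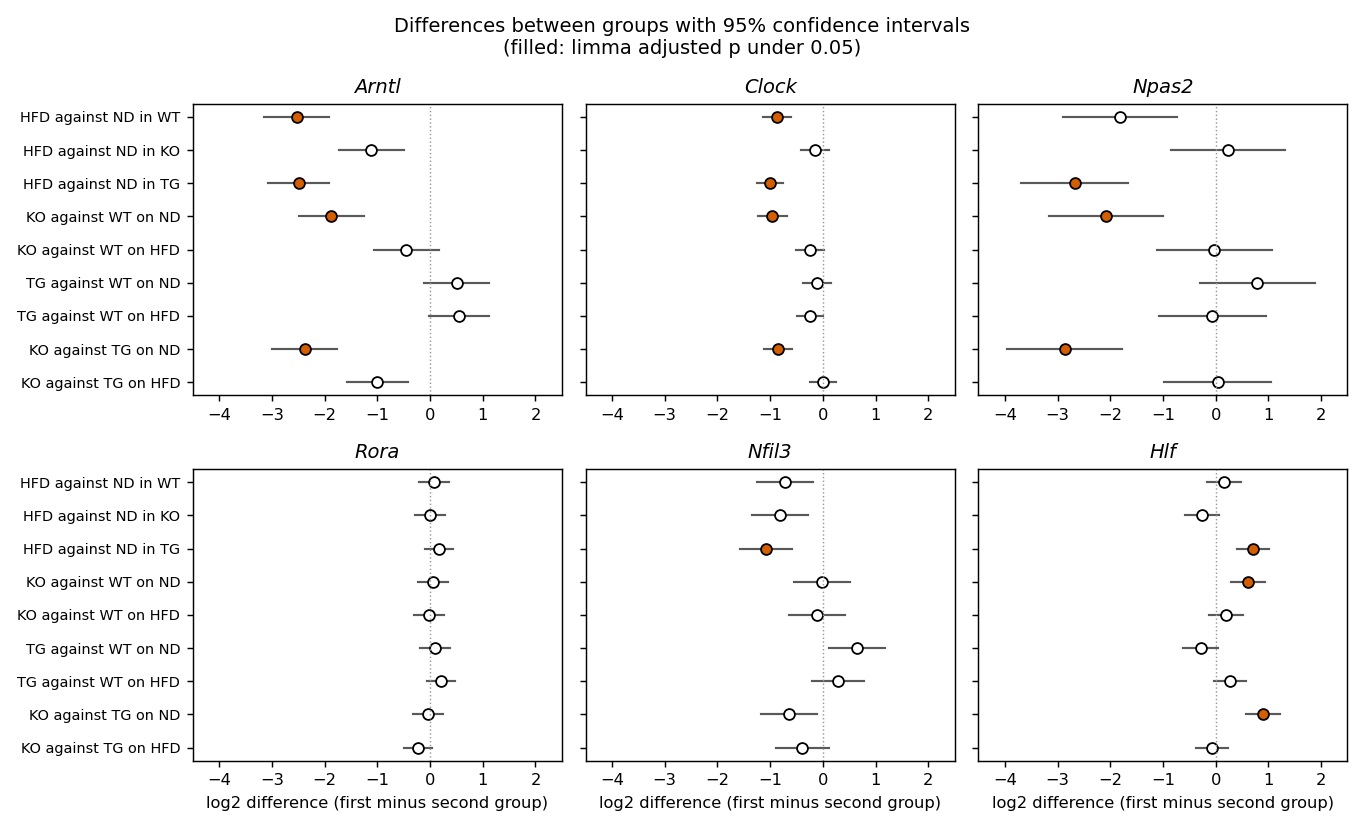
Log2 difference (horizontal axis, first group minus second) of each gene in the 9 comparisons of 2 groups, with 95% confidence intervals from the limma model. Filled points have an adjusted p under 0.05: Arntl and Clock are filled in the same 4 comparisons, and Rora in none.

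The first question put to the 6 genes was how the diet groups differed in each genotype. In WT 2 of them fell (Arntl and Clock) and 4 did not pass, where 1.32% of all genes passed and 0.568% fell. With WT on ND replicate 3 left out, Npas2 passed as well (-2.61, adjusted p = 0.00341). In TG 4 fell (Arntl, Clock, Npas2 and Nfil3), Hlf rose and Rora did not pass, where 0.906% of all genes passed, 0.509% lower and 0.397% higher. In KO none passed (0.803% of all genes did), with unadjusted p-values under 0.05 for 2, Arntl and Nfil3. The median difference of the 6 genes was -0.80 in WT, -0.21 in KO and -1.04 in TG, and that of all genes was 0.00 in each. Non-overlap of the diets was seen in 3, 3 and 5 of the genes in WT, KO and TG, beside 15.1%, 17.1% and 9.49% of all genes.

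The second question was how the genotypes differed on each diet. On ND, KO differed from WT in 4 of the 6 genes (Arntl, Clock and Npas2 lower, Hlf higher), where 2.98% of all genes passed, 1.6% lower and 1.38% higher. KO differed from TG in Arntl, Clock, Npas2 and Hlf too, in these directions, where 4.2% passed, 2.49% lower and 1.71% higher. In both, the arrays did not overlap for 4 of the 6, beside 18.1% and 21.1% of all genes. These comparisons share the KO arrays, and the diet comparison in WT shares the WT arrays on ND. TG and WT on ND differed in none of the 6 (1.3% of all genes passed), with 1 unadjusted p under 0.05, for Nfil3 (0.64, adjusted p = 0.353). With WT on ND replicate 2 left out, Npas2 passed as higher in TG (1.69, adjusted p = 0.018, against 0.79 and 0.715 with it). On HFD no genotype comparison passed for any of the 6 genes by limma, where 0.338% of all genes passed for KO against WT, 3.57% for TG against WT and 2.35% for KO against TG. At an unadjusted p under 0.05 there were 0, 0 and 1 of the 6, the last being Arntl in KO against TG. Arrays did not overlap for 0 of the 6 in KO against WT on HFD (13.2% of all genes), for 0 in TG against WT on ND (15.8%), and for 1, Arntl, in each of TG against WT (12.3%) and KO against TG (12.1%) on HFD.

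Whether the difference between the diet groups varied by genotype was tested as a difference of differences, called the diet effect for short. The diet effect in KO minus that in WT was 1.42 for Arntl (SE 0.41, adjusted p = 0.14), 0.71 for Clock (SE 0.18, adjusted p = 0.0788) and 2.05 for Npas2 (SE 0.73, adjusted p = 0.269). None of the 6 passed, nor did any for TG minus WT, where 0.825% and 0.221% of all genes passed and 3 and 1 of the 6 had an unadjusted p under 0.05. Without WT on ND replicate 3, Npas2 passed for KO minus WT (2.84, adjusted p = 0.0254). KO minus TG, added after the values were seen, passed for Clock (0.84, SE 0.18, adjusted p = 0.0245) and for Hlf (-0.98, SE 0.21, adjusted p = 0.0297), where 1.07% of all genes passed, 0.604% higher and 0.469% lower. Arntl (1.37, adjusted p = 0.131) and Npas2 (2.91, adjusted p = 0.058) did not, although Npas2 did in a fit of those 4 groups alone (adjusted p = 0.00125). The Clock call was lost without KO on ND replicate 1 or 3 (adjusted p = 0.0503 and 0.0615), KO on HFD replicate 3 (0.0703) or TG on ND replicate 2 or 3 (0.0661 and 0.0601). The Hlf call was lost without KO on ND replicates 1, 2 or 3 (0.0519, 0.0658 and 0.0805), KO on HFD replicates 1, 2 or 3 (0.0829, 0.0512 and 0.0676) or TG on ND replicates 2 or 3 (0.0812 and 0.0851).

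Several genes that BMAL1 drives were higher in comparisons where Arntl was lower, but Nr1d1, which it also drives, was not. On ND Nr1d1 was lower in KO than in WT and than in TG (limma adjusted p = 0.00278 and 0.00613). Of 7 measured E-box repressors, 4 rose under HFD in WT (Per1, Per3, Ciart and Bhlhe40) and 5 in TG (these and Cry2), and none fell. Of all genes 1.32% passed for diet in WT and 0.906% in TG. Cry1 passed in no comparison. On ND 4 of the repressors were higher in KO than in WT, and 4 than in TG, where 2.98% and 4.2% of all genes passed. On HFD none passed in any of the 3 genotype comparisons, and none passed for diet in KO. The median difference of this list was 0.87 in WT, -0.07 in KO and 1.38 in TG for diet, beside 0.00 for all genes in each. Ciart, a repressor of CLOCK and BMAL1, rose by 2.21 in WT and by 3.15 in TG under HFD (adjusted p = 0.00172 and 3.04e-05) and was higher by 3.40 in KO than in WT on ND (adjusted p = 1.02e-05). Per3 rose by 1.85 and 2.47 under HFD in WT and TG (adjusted p = 0.000204 and 3.17e-06).

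Among the partners of Hlf, Dbp and Tef both rose under HFD in WT and TG and were higher in KO than in WT on ND, while Arntl2, the gene of the BMAL1 relative BMAL2, passed in none of these. Dbp read 6.19, 5.36 and 6.85 in WT on ND, 4.85, 5.11 and 5.44 in TG on ND and 7.33, 7.58 and 7.43 in KO on ND, and lay between 7.64 and 8.23 on all 10 HFD arrays. It rose under HFD by 1.70 in WT and by 2.84 in TG (adjusted p = 0.00134 and 3.04e-06) and was higher by 1.32 in KO than in WT on ND (adjusted p = 0.00661). In KO its diet difference was 0.62 (adjusted p = 0.343). The Dbp level of KO on ND was thus above that of every WT and TG array on ND and below that of every HFD array.

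**Figure D3:**
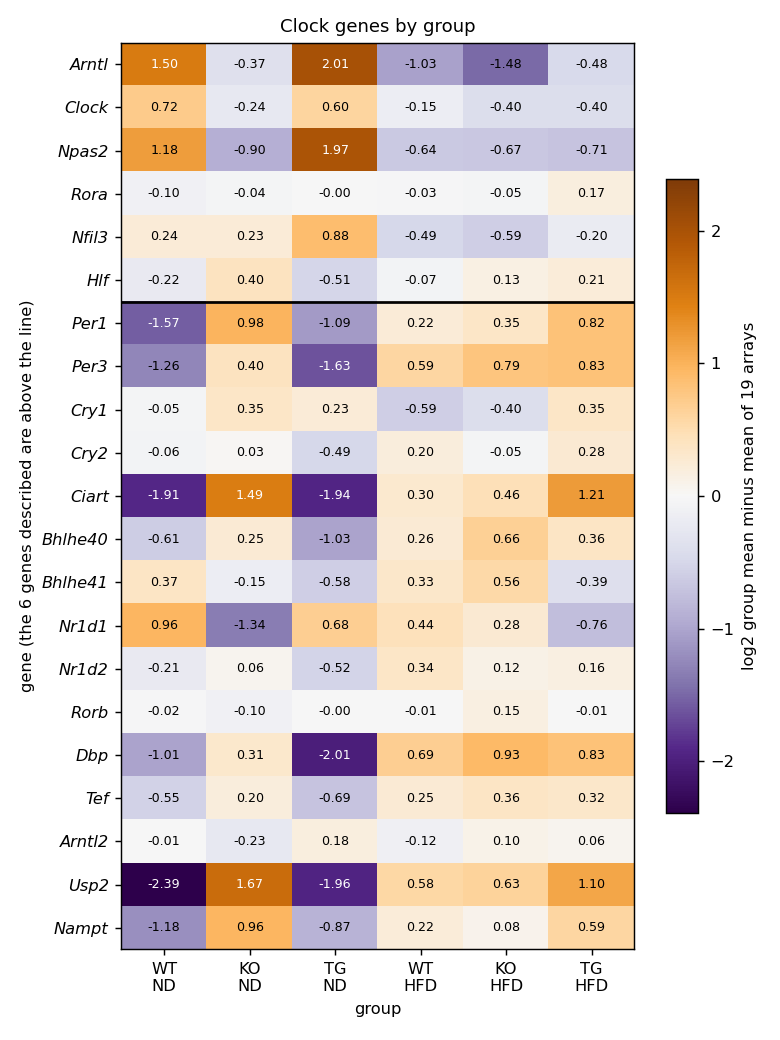
Group mean minus the mean of all 19 arrays (log2, colour and printed value) for the 6 genes (above the line) and for other clock genes (below it), by group. Arntl, Clock and Npas2 are above their means in WT and TG on ND, where Per1, Per3, Ciart, Dbp and Usp2 are below theirs. Nr1d1 is above its mean in WT and TG on ND and in WT and KO on HFD.

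Of the receptors that share ROR elements with RORA, 3 were measured, Nr1d1, Nr1d2 and Rorb. Nr1d1, which encodes REV-ERB alpha, read 6.55, 7.10 and 7.31 in WT on ND, 6.74, 6.93 and 6.43 in TG on ND and 4.98, 4.51 and 4.57 in KO on ND. It was lower in KO than in WT on ND (-2.30 on the log2 scale, SE 0.40, adjusted p = 0.00278), where Arntl, the gene it represses, was low as well. Under HFD its differences were -0.52 in WT (adjusted p = 0.71), 1.61 in KO (adjusted p = 0.072) and -1.44 in TG (adjusted p = 0.0876). The 4 TG arrays on HFD read 4.48, 4.48, 6.22 and 5.87, which split them in pairs that Arntl (3.73, 3.48, 3.61 and 3.34) did not show. Nr1d2, the second REV-ERB, rose in TG under HFD (0.69, adjusted p = 0.0457) and passed in no other comparison of 2 groups. Rorb passed in none.

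**Figure D4:**
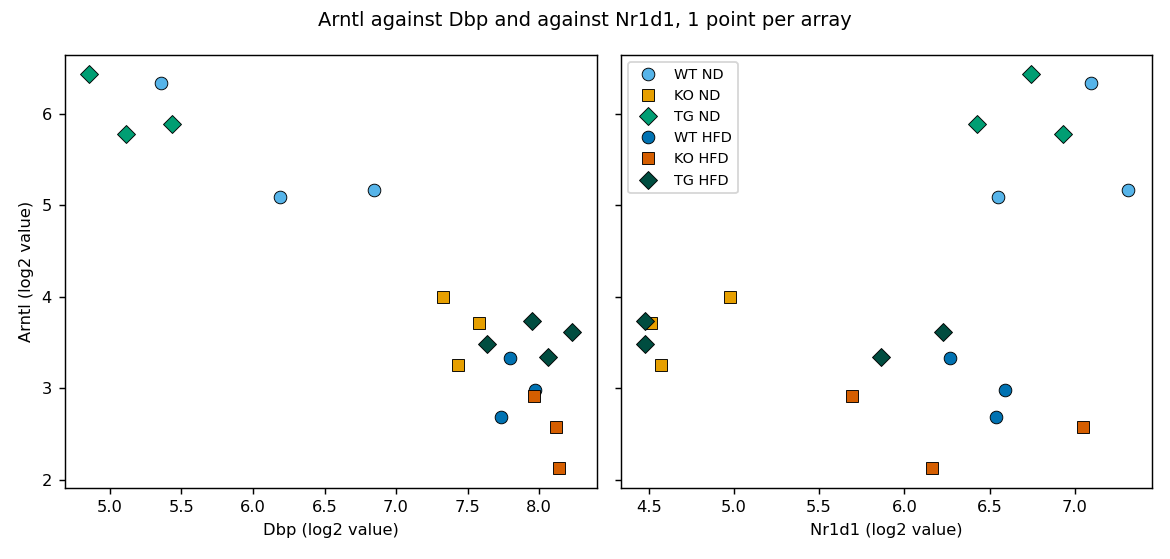
Arntl (vertical axis, log2) against Dbp (left) and Nr1d1 (right, both log2), 1 point per array, coloured by group. Arrays with high Arntl have low Dbp, while the low-Arntl arrays span Nr1d1 values from 4.48 to 7.05.

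Of 6 measured genes of clock protein turnover, Usp2, a deubiquitinase, was the member that passed: it rose by 2.97 and 3.06 under HFD in WT and TG (adjusted p = 6.49e-06 and 2.04e-06). On ND Usp2 was higher in KO than in WT by 4.06 (adjusted p = 6.07e-08). Of 6 coregulator genes, Nampt, the NAD-producing enzyme that BMAL1 drives, rose by 1.40 and 1.45 in the same comparisons and fell by 0.87 in KO (adjusted p = 0.000431, 0.000192 and 0.0366). Its change in KO was opposite in sign to those in WT and TG, from a higher level on ND. There Nampt was higher in KO than in WT by 2.14 (adjusted p = 2.3e-06), with means of 7.41 and 5.28. On HFD its means were 6.54 in KO and 6.68 in WT. Ppargc1a, a coactivator of RORs, was higher in KO than in TG on ND (0.90, adjusted p = 0.0224).

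Liver genes known as ROR targets changed in a few members. Of 8 on that list 2 fell under HFD in WT, 1 in KO and 2 in TG, where 1.32%, 0.803% and 0.906% of all genes passed. The medians of the list were -0.56, -0.56 and -0.31, beside 0.00 for all genes in each. In KO against WT on ND 2 were lower, where 2.98% of all genes passed. Elovl3, a fatty acid elongase, fell by 1.48 in WT and by 3.54 in TG (adjusted p = 0.00717 and 6.62e-07) and was lower in KO than in WT on ND (-1.85, adjusted p = 0.000624). Avpr1a, a vasopressin receptor, was lower in KO than in WT on ND (-2.14, adjusted p = 0.000397). The list also holds opposite calls: Avpr1a was higher in TG than in WT on ND (1.29, adjusted p = 0.0369), and on HFD Hsd3b5, a steroid dehydrogenase, was higher (2.27, adjusted p = 0.00433) and Elovl3 lower (-2.33, adjusted p = 4.75e-05) in TG than in WT. None of the 6 genes and none of the 13 measured genes of the E-box repressor, REV-ERB and PAR bZIP lists passed by limma in those comparisons of TG with WT.

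Liver genes known as targets of HLF, DBP and TEF changed in a few members per comparison. Of 8 measured, 1 rose and 1 fell in WT under HFD, 1 fell in KO and none passed in TG, where Hlf and Dbp both rose. Of all genes 1.32%, 0.803% and 0.906% passed for diet in WT, KO and TG. Alas1, the rate-limiting enzyme of haem synthesis, rose in WT under HFD (1.98, adjusted p = 0.00791). In KO against WT on ND, where Hlf and Dbp were higher, 2.98% of all genes passed. Of the 8, 1 was higher and 1 lower, with a median of -0.25. These were Alas1 (2.93, adjusted p = 0.000162) and Cyp2c37 (-2.57, adjusted p = 2.96e-05). Cyp2b10, a drug-metabolising enzyme, fell by 3.05 in WT and by 4.66 in KO under HFD (adjusted p = 0.0183 and 0.00326). In KO against TG on ND, where Hlf and Dbp were higher, 3 of the 8 were higher and none lower, with a median of 0.61: Alas1 (1.68), Cyp2b10 (3.34) and Nr1i3 (1.41), the gene of the nuclear receptor CAR. In TG against WT on HFD 4 of the 8 were lower and none higher. Of all genes 4.2% passed in KO against TG on ND and 3.57% in TG against WT on HFD.

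Within groups the positive limb varied between animals most in WT on ND. Replicate 2 of that group was its highest array for 5 of the 6 genes (all but Hlf) and its lowest for Dbp. The residual SD over all groups was 0.73 for Npas2, higher than in 99.3% of the 2538 genes within 0.5 of its mean, and 0.40 for Arntl, higher than in 91.4% of 1805. Clock (0.14, higher than in 50.2% of 546) and Hlf (0.19, higher than in 47.3% of 2007) varied like other genes of their level.

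Relations between the 6 genes, and of each with Nr1d1 and Dbp, were tested over the 19 arrays after removing the group means, 27 pairs in all. No pair passed after adjustment by a permutation test within groups, and 2 had an unadjusted p under 0.05 (Rora with Hlf, r = 0.51, permutation p = 0.0145, adjusted p = 0.391, and Rora with Dbp, r = -0.52, permutation p = 0.0405, adjusted p = 0.464). The closest pair was Npas2 and Dbp (Pearson's r = -0.80, permutation p = 0.125, adjusted p = 0.562, Spearman's rho = -0.31, permutation p = 0.33, adjusted p = 0.789). It rested on few arrays, with r = -0.11 without the 2 arrays farthest from the median of Npas2. Arntl and Npas2 had r = 0.66 (permutation p = 0.0515, adjusted p = 0.464, rho = 0.51, permutation p = 0.0795, adjusted p = 0.472), and r = 0.45 without the 2 farthest arrays. The opposite levels of Arntl and Dbp in the plot against Dbp are levels of groups. Within groups the pair had r = -0.62 (permutation p = 0.0915, adjusted p = 0.494, rho = -0.50, permutation p = 0.0874, adjusted p = 0.472), or -0.43 without the 2 farthest arrays.

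The likeness of other genes was described by Pearson's r over the 19 arrays among up to 6400 genes with a mean of at least 4, with no test, since the groups set most of it. Arntl was most like Clpx (0.94), Tab2 (0.92) and Net1 (0.90), and most opposite to Dbp (-0.94). Clock was most like Mreg (0.96), Clpx (0.95) and Ugt2b35 (0.95), and most opposite to Per3 (-0.95). Npas2 was most like Smagp (0.91), Clpx (0.89) and Arntl (0.87), and most opposite to Dbp (-0.92). Clpx, a chaperone of the mitochondrial matrix, was thus among the closest by Pearson's r for all 3 positive-limb genes. Spearman's rho with Clpx was 0.76 for Arntl, 0.84 for Clock and 0.63 for Npas2. For Npas2, dim in KO and on HFD, rho was 0.83 with Smagp, 0.58 with Arntl and -0.59 with Dbp. Nfil3 had other neighbours, Nedd4l (0.83), Carmil1 (0.83) and Hsd17b2 (0.82), with Serpina6 as its opposite (-0.89). Hlf was most like Atp6v1d (0.88), Ndel1 (0.84) and the glycogen synthase Gys2 (0.80), and most opposite to the bile salt exporter Abcb11 (-0.84). For Rora the values were lower, with Dnajc11 at 0.78, Tcea1 at 0.73, Dnajc1 at 0.69 and Mif4gd at -0.80.

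Hepatocyte markers were high on all arrays, with albumin (Alb) between 12.26 and 12.51, and none of 6 passed for diet in any genotype or for KO against WT on ND. In KO against TG on ND 1 of 6, Apoa2, was higher in KO (0.52, adjusted p = 0.014). Macrophage markers moved with TG: 8 of 8 were higher in TG than in WT on ND and 8 of 8 on HFD. In KO against TG 7 of 8 were lower on ND and 4 of 8 on HFD. Of all genes 1.3% and 3.57% passed for TG against WT on ND and HFD, and 4.2% and 2.35% for KO against TG. With diet, 1 of 8 (Marco) fell in WT and 0 of 8 in KO and in TG, and in KO against WT on ND 1 of 8 (Marco) was lower. The log2 of their summed signal lay between 9.03 and 9.62 on the 7 TG arrays and between 7.54 and 8.44 on the 12 others. In KO against TG on ND, 2 of 4 T cell markers and 1 of 4 cholangiocyte markers (Sox9) were also lower, and Sox9 was lower in KO than in WT on ND. The part of these cells in the clock gene results was not tested.

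Among the arrays as wholes, WT on HFD replicate 1 correlated least with the arrays of its group (mean r 0.969) and with those of other groups (0.963), followed in the latter by TG on HFD replicate 2 (0.965). Without both, the diet differences of Arntl and Clock in WT and TG kept their calls.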

How the data were processed

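RNA of whole liver (400 ng) was labelled with biotin and hybridised to Affymetrix arrays, per the labels. The authors deposited 1 table of values per probe set, taken to be log2, for 19 arrays. RMA, affy and limma are tools listed by the submitters' processing notes, without versions or roles, and base 2 was inferred from RMA and the range of values. Of 41345 probe sets 23521 carried 1 symbol, which gave 22180 genes by the probe set of highest mean, 56.5% of them with a mean under 2. No depth exists for arrays, and the number of animals limits precision.

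Models used R 4.3.3 and limma 3.58.1 (lmFit, then eBayes) and were tested on simulated data. There were 13 degrees of freedom among arrays, to which the prior added 4.76. All adjusted p-values of genes are from limma and two-sided. Relations used 100000 permutations within groups, two-sided. Named genes were the 6 genes, list members that passed, Nr1d1 and Dbp, and the 3 most alike and 1 most opposite genes of at least mean 4. The text names a selection of the list members. The 6 genes and the lists were chosen with earlier results of these data known. The form of the ROR element searched was chosen after the promoters were read. Per2 and some other list genes were not analysed here. Alternatives were fits of the compared groups alone, median centring, a filter at a mean of 2, means of probe sets, a variance trend, array weights and leaving arrays out.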

Additional observations from a re-analysis of the deposited data

Results flagged for a closer look

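Hlf in TG on HFD had 1 array apart from the others, replicate 3 at 5.52 beside 5.18 to 5.23. Only TG on HFD, the group of 4 arrays, was examined for such arrays, for each of the 6 genes. Chance marks about 1 in 20 of such tests, and the groups of 3 arrays were not examined. The diet differences of Hlf had opposite signs, each without overlap of arrays, at -0.26 in KO, which did not pass (limma adjusted p = 0.577), and 0.72 in TG, which did (limma adjusted p = 0.0212). The difference of these effects, KO minus TG, was -0.98 (limma adjusted p = 0.0297), and that of Clock was 0.84 (limma adjusted p = 0.0245). This comparison was added after the values were seen, and its calls were lost in 8 of 13 fits that left out 1 array for Hlf and in 5 of 13 for Clock.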

How the results depend on the processing

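All 17 calls of single genes kept their direction in 229 alternative values, and 193 of these kept the call. Arntl and Clock kept theirs under every alternative for diet in WT and TG and for KO against WT and against TG on ND, as did Npas2 and Hlf in KO against TG on ND. Leaving out 1 array at a time, the number of the 6 genes that passed ran from 3 to 5 for diet in TG (5 with all arrays), from 2 to 3 for KO against WT on ND (4), from 0 to 1 for TG against WT on ND (0) and for the diet effect in KO minus that in WT (0), and from 0 to 2 for KO minus TG (2). With the compared groups alone it was 3 for diet in TG. With only genes of a mean of at least 2, 1 passed for KO against TG on HFD (Arntl) and 1 for the diet effect in KO minus that in WT (Clock). Npas2 is not tested under that filter. With a variance trend and robust prior 1 also passed for the latter. Without centring on group means 16 of the 27 pairs passed, against 0. Calls over all genes moved by over 1.5 times with the compared groups alone: 139 in place of 293 for diet in WT, 62 in place of 178 in KO, 55 in place of 201 in TG, 37 in place of 75 for KO against WT on HFD, 248 in place of 791 for TG against WT on HFD and 156 in place of 522 for KO against TG on HFD. With the filter they were 292, 310, 294 and 371 for diet in KO, in TG, and for its effect in KO minus WT (183 without it) and KO minus TG (238). Without WT on HFD replicate 1 and TG on HFD replicate 2 they were 186 for diet in WT, 297 and 346 for TG against WT and KO against TG on HFD, and 32 in place of 49 for the diet effect in TG minus that in WT. Each such fit has fewer arrays or genes; other causes were not tested. No paired analysis was possible because the labels give no replicate numbers shared between groups. Dim signal limits Npas2 most.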
